A study of Mus musculus with 6 samples.

Results

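Heterotrimeric G proteins are the switches between membrane-spanning receptors and the enzymes and channels inside the cell. An alpha subunit that binds GDP sits in a complex with a beta and a gamma subunit, an active receptor makes it exchange GDP for GTP, and alpha and beta-gamma then act on separate targets. In striatal projection neurons the alpha subunits of the Gi, Go and Gz kinds lower adenylyl cyclase activity or act through released beta-gamma. These subunits serve the mu opioid, dopamine D2 and muscarinic M4 receptors. The olfactory type of stimulatory subunit, Golf, raises cyclase activity there downstream of dopamine D1 receptors and of some adenosine receptors. The genes described here are 10 of the 18732 genes in the authors' full comparison, chosen by symbol and matched by Ensembl identifier. They comprise 5 inhibitory alpha genes (Gnai1, Gnai2, Gnai3, Gnao1 and Gnaz), 2 stimulatory alpha genes (Gnal, which encodes Golf, and Gnas, which encodes Gs), the Gq gene Gnaq, the beta gene Gnb1 and the gamma gene Gng7.

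RNA was purified from mouse striatum by its attachment to ribosomes that carry GFP-L10a, a tagged large-subunit protein made only after Cre recombination, and was then sequenced. All mice carried an Oprm1-Cre allele and the Rosa LSL-GFP-L10a allele, so cells were tagged wherever the Cre allele of the mu opioid receptor gene is or had been active. The labels of the samples write Oprm1Cre/+ for that allele, whereas the description of the whole series writes Oprm1Cre/Cre, a discrepancy that the files do not settle. Mice received saline or subcutaneous morphine for 5 days, with 2 injections daily in steps of 20, 40, 60 and 100 mg/kg. Striata of both hemispheres from 2 brains were pooled for each library, 24 h after the last dose, with 3 libraries in each group. The age of the mice was not given in the labels used here. Nothing in the labels says that the libraries came from separate cohorts, so the p-values measure the spread between these libraries.

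Only the authors' comparison of the groups was used, and values per library were not analysed here. Depth is therefore unknown, the level in each group cannot be shown, and the authors' standard errors (SEs) are the measure of precision. A gene counts as called when the authors' adjusted p, from a DESeq2 Wald test with Benjamini-Hochberg adjustment over all tested genes, was below 0.05. A log2 fold change above 0 is taken to mean more RNA in the ribosome purification after morphine, since such genes sit in the sheet whose name marks increases. Neither the numerator nor the set of libraries fitted, out of 6, is named, and with the opposite numerator all directions given below would be inverted. In bulk RNA of this kind, fewer cells of a type and less RNA per cell cannot be told apart. Nor can less attachment to ribosomes or less carry-over from untagged cells.

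The labelled cell type was checked against markers by the level per kilobase of exon, the authors' deposited mean of normalized counts divided by the union of annotated exons. By the authors' deposited table the 10 striatal projection neuron markers had a median of 8199 per kilobase and the 4 pan-neuronal markers a median of 7844 per kilobase. By the same measure from the authors' deposited table the medians were 90.6 for 8 astrocyte markers, 388 for 8 oligodendrocyte markers and 20.8 for the 6 microglial markers measured. Oprm1, the gene of the Cre line, stood at 81.9 per kilobase in the authors' deposited table, with a log2 fold change of 0.29 (adjusted p = 0.350, SE 0.18). Glial markers are low beside neuronal ones but present, and by the table that the authors deposited, 6 of 8 astrocyte, 6 of 8 oligodendrocyte and 5 of 6 microglial markers were called higher after morphine, with medians of 1.15, 1.2 and 2.39 on the log2 scale, beside 11.8% called higher among all tested genes. In the same table of the authors' deposited values, 4 of 4 oligodendrocyte precursor, 4 of 4 choroid plexus and 2 of 6 endothelial and pericyte markers were called higher, with medians of 1.25, 2.8 and 1.17. Of coding genes with a predicted membrane or signal segment 44.3% were called in either direction, and without one 4.25%. A segment was predicted in 4 of 8 astrocyte, 5 of 8 oligodendrocyte, 5 of 6 microglial and 3 of 4 precursor markers. It was predicted in 3 of 4 choroid plexus and 6 of 6 endothelial and pericyte markers. Without one, 2 of 4 astrocyte, 2 of 3 oligodendrocyte and 0 of 1 microglial markers were called higher. So were 1 of 1 precursor and 1 of 1 choroid plexus markers. Of 8 listed microglial markers, C1qc and Tmem119 have no value in the authors' comparison, and the 6 measured had deposited means of 23.2 to 150. The part of all these cells in the values below was not tested.

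The inhibitory alpha subunits are told apart from the others at the end of the protein, which contacts the receptor. Pertussis toxin, the classical blocker of opioid receptor signalling, modifies a cysteine at the fourth residue from that end in Gi and Go, and Gz lacks it. The last 36 bases of the coding sequence, stop codon included, are shown because they separate the members by this feature. They are read from GENCODE M21 transcripts with coordinates on GRCm38, 5′ to 3′ on the coding strand, and capitals mark the codon of the fourth residue from the end. Where a gene has several annotated coding ends, those shown are of full-length alpha subunits in the CCDS set.
Gnai1, chr5:18267019-18267054, minus strand: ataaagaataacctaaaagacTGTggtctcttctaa
Gnai2, chr9:107615635-107615670, minus strand: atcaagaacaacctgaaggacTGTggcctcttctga
Gnai3, chr3:108109422-108109457, minus strand: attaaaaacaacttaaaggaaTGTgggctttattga
Gnao1, first end, chr8:93956217-93956252, plus strand: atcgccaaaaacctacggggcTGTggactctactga
Gnao1, other end, chr8:93967020-93967055, plus strand: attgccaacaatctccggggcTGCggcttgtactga
Gnaz, chr10:75015177-75015212, plus strand: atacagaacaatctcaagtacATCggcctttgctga
Gnas, chr2:174346353-174346388, plus strand: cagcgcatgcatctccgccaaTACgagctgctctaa
Gnaq, chr19:16383359-16383394, plus strand: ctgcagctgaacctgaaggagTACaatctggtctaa

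The cysteine codon is TGT in Gnai1, Gnai2 and Gnai3, and TGT or TGC in the shown ends of Gnao1, which are 2 of its 4 annotated coding ends and the only ones in the CCDS set. The other ends of Gnao1, of short annotated forms, have no cysteine codon there. The isoleucine codon ATC stands there in Gnaz, and the tyrosine codon TAC in Gnaq and in the shown end of Gnas, 1 of 5 annotated for that gene. The other ends of Gnas, 3 of them in the CCDS set, belong to further products of the locus or to a short form and were not used. The deposited values are per gene, so the alternative ends of Gnao1 and the several products of Gnas are added together in what follows. Within the inhibitory class the coding sequences are 63.99% to 78.46% identical, with Gnai1 and Gnai2 the closest pair at 78.46%. Gnal and Gnas are 70.70% identical. No stretch of 50 bases in Gnai1, Gnai3, Gnaz, Gnb1 or Gng7 occurs in the transcript of another gene, so these 5 share no such stretch through which reads could be split.

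None of the 10 subunit genes was called in either direction. By the table that the authors deposited, 0 of 10 members were called, beside 13.8% of all 17279 tested genes, or 11.8% called higher and 2.01% called lower. Among the 1406 tested genes whose mean in the authors' deposited table was at least 10000, the share called was 14.9%. At an unadjusted DESeq2 Wald p below 0.05 the count of members was also 0, and the smallest unadjusted p in the authors' deposited table was 0.0899, that of Gng7. Log2 fold changes in the authors' deposited table ran from -0.22 to 0.24 with a median of -0.09, against -0.01 over all tested genes. Of the members 7 were below 0 and 3 above, and 51.7% of all tested genes were below 0. A p above the threshold does not show that a gene stayed at the same level, and the intervals say how large a change these data leave room for. The 95% intervals, normal intervals from the authors' SEs, all included 0, and across the members they reached from 0.718-fold to 1.43-fold. The SEs of the members in the authors' deposited table, 0.12 to 0.15, were under the median of 0.15 for those 12486 genes whose mean reached 100.

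**Figure D1:**
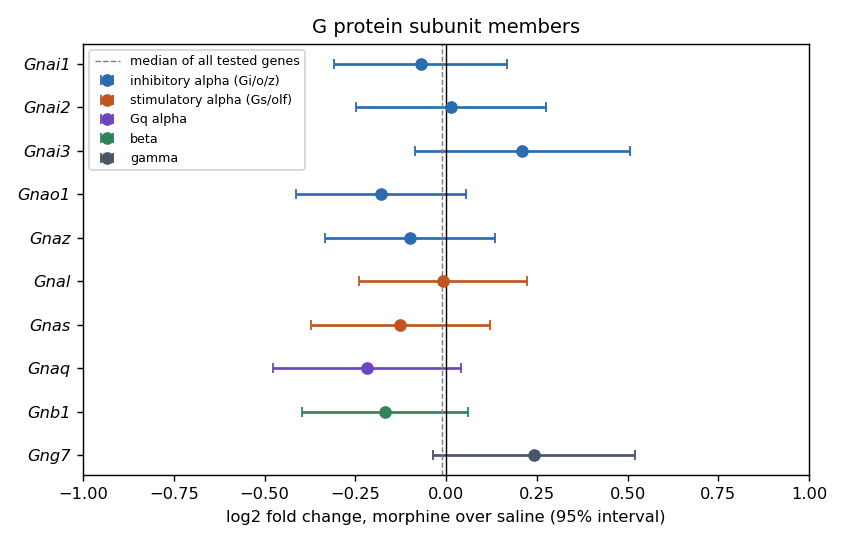
Log2 fold change of morphine over saline for the 10 members (points) with normal 95% intervals (bars), coloured by subunit class, from the authors' deposited table. Every interval crosses 0, the lowest point is Gnaq at -0.22 and the highest is Gng7 at 0.24.

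Among the inhibitory alpha subunits the estimates fell on both sides of 0. Gnao1, the gene of Go, the main alpha subunit of neurons, lies on chromosome 8 from 93809966 to 93969388 (GRCm38) and had a log2 fold change of -0.18 (adjusted p = 0.429, SE 0.12) in the authors' deposited table. Its 95% interval from the authors' deposited table ran from 0.751-fold to 1.04-fold. Gnaz encodes Gz, an inhibitory subunit known for slow GTP hydrolysis, and lies on chromosome 10 from 74967177 to 75016907. The authors' deposited table gave Gnaz -0.10 (adjusted p = 0.741, SE 0.12), with an interval from 0.793-fold to 1.10-fold.

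The 3 genes of Gi encode closely related proteins that inhibit adenylyl cyclase. Gnai1, on chromosome 5 from 18265135 to 18360355, had a log2 fold change of -0.07 (adjusted p = 0.842, SE 0.12) in the authors' deposited table, with an interval from 0.807-fold to 1.12-fold. Gnai2, on chromosome 9 from 107614125 to 107635367, was at 0.013 (adjusted p = 0.978, SE 0.13) in the authors' deposited table, with an interval from 0.841-fold to 1.21-fold. Gnai3, on chromosome 3 from 108107280 to 108146146, was the highest of the class at 0.21 (adjusted p = 0.479, SE 0.15) in the authors' deposited table. It had the widest SE of the members and an interval from 0.941-fold to 1.42-fold. Gi2 is a subunit that immune and glial cells also carry, and Gnai2 stood at 0.013 beside microglial markers with a median of 2.39 on the log2 scale. The authors' deposited means of those markers were 23.2 to 150, against 3488 for Gnai2. The part of immune and glial cells in the value of Gnai2 was not tested.

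The stimulatory alpha subunits were both slightly below 0. Gnal, on chromosome 18 from 67088216 to 67226792, had the estimate nearest to 0 of all members, with a log2 fold change of -0.0088 (adjusted p = 0.982, SE 0.12) in the authors' deposited table and an interval from 0.846-fold to 1.17-fold. Gnas, on chromosome 2 from 174284320 to 174346744, was at -0.13 (adjusted p = 0.667, SE 0.13) in the authors' deposited table, with an interval from 0.772-fold to 1.09-fold. Other genes overlap 22.0% of the exon bases of Gnas, 7.63% of those of Gnal and 2.57% of those of Gnao1, in each case on the opposite strand, and the sources used here do not give whether counting used strand. The measured partner of Gnas is Gm20721, which covers 13.1% of its exon bases and was called lower in the authors' deposited table (-0.86, SE 0.23, adjusted p = 0.00231). Mppe1, opposite Gnal, was at 0.29 (adjusted p = 0.343, SE 0.17), and 4930488L21Rik, opposite Gnao1, at -0.27 (adjusted p = 0.804, SE 0.40) in the authors' deposited table. These partners were looked up after the values were seen, and their part in the values of the members was not tested.

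Set side by side, the inhibitory and stimulatory classes had nearly the same centre. The median log2 fold change from the authors' deposited table was -0.07 for the 5 inhibitory genes (range -0.18 to 0.21) and -0.07 for the 2 stimulatory genes (range -0.13 to -0.0088). Of the inhibitory genes 3 were below 0 and 2 above, and of the stimulatory genes 2 were below 0. The difference between the classes was not tested, since the same libraries stand behind every gene and their covariance needs values per library.

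Of the remaining members, the beta and the alpha q gene were below 0 and the gamma gene above. Gnaq, on chromosome 19 from 16132831 to 16387463, encodes the subunit that activates phospholipase C beta. The authors' deposited table gave Gnaq the lowest log2 fold change of the members, -0.22 (adjusted p = 0.349, SE 0.13), with an interval from 0.718-fold to 1.03-fold. Gnb1, on chromosome 4 from 155491361 to 155559269, encodes the widely used beta 1 subunit and was at -0.17 (adjusted p = 0.455, SE 0.12) in the authors' deposited table, with an interval from 0.760-fold to 1.04-fold. Gng7, on chromosome 10 from 80948624 to 81014945, encodes the gamma subunit known to assemble with Golf in the striatum, where loss of Gng7 in mice lowers Golf protein. The authors' deposited table gave Gng7 the highest log2 fold change of the members, 0.24 (adjusted p = 0.335, SE 0.14), with an interval from 0.974-fold to 1.43-fold. Gng7 and its partner Gnal thus both had intervals that include 0.

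The end of Gng7 is shown because it carries the site of its membrane anchor. Gamma subunits end in a cysteine followed by 3 further residues, the cysteine receives a prenyl group, and the residues after it are then cut off. Capitals mark the codon of that cysteine in the last 36 coding bases, from the same source.
Gng7, chr10:80951621-80951656, minus strand: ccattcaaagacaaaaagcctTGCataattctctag

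By the authors' deposited mean, 6 of the 10 members were among the 1000 genes with the highest means, and Gnai2 and Gnai3 were lower down. The members' order by level per kilobase was the same at its ends under 3 definitions of length. By the authors' deposited mean divided by the union of exons, the order ran from Gng7 (25307 per kilobase) through Gnb1 (17168), Gnao1 (7285), Gnal (6590), Gnas (5621), Gnaq (3435), Gnaz (3284) and Gnai1 (2910) to Gnai2 (923) and Gnai3 (376). Gng7 was first and Gnaz, Gnai1, Gnai2 and Gnai3 were the last 4 in this order, and they held those places with the longest transcript or the longest coding sequence as the length. The members between them changed places with the definition, Gnb1 falling below Gnao1 with the coding sequence, and Gnas being the third with the longest transcript and the sixth with the coding sequence, where its longest form is that of an extra-large isoform. Spread between libraries was not available, so whether neighbours in this order differ beyond it was not tested. By level per kilobase from the authors' deposited table, Gng7 exceeded 99.8% of coding genes, Gnb1 99.6%, Gnao1 98.3% and Gnal 98.0%, while Gnai3 exceeded 59.4%. Of the summed inhibitory level per kilobase of exon union, Gnao1 made up 49.3%, Gnaz 22.2%, Gnai1 19.7%, Gnai2 6.25% and Gnai3 2.55%. With the longest transcript these shares were 63.9%, 14.8%, 12.8%, 6.91% and 1.65% in the same order, and with the coding sequence Gnao1 made up 75.8%, Gnaz 11.1% and Gnai1 8.59%. The summed inhibitory level from the authors' deposited table was 1.21 times the summed stimulatory level with the union of exons and 0.793 times with the longest transcript, so no order of the classes can be read from it.

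**Figure D2:**
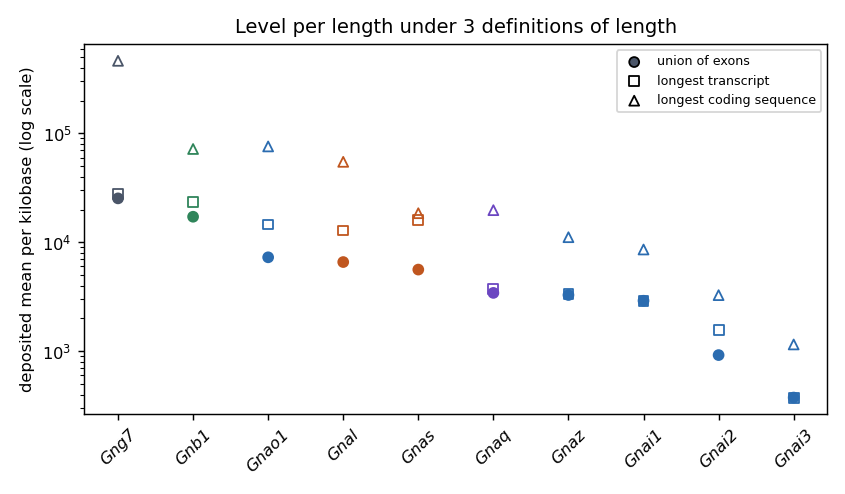
The authors' deposited mean of normalized counts per kilobase (log scale) for the 10 members, coloured by subunit class, with filled circles for the union of exons, squares for the longest transcript and triangles for the longest coding sequence. Gng7 is the highest and Gnai3 the lowest member under each definition.

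Beyond the 10 members, 4 other subunit genes were called, mostly downward among beta and gamma. Of 33 subunit genes listed in all, 28 were measured and 27 had an adjusted p, and by the table that the authors deposited, 1 of these was called higher and 3 lower, beside 11.8% and 2.01% of all tested genes. The median log2 fold change of the 27 was -0.10, against -0.01 over all tested genes. Of the 27, 26 have no predicted membrane or signal segment. Coding genes without one had a median of -0.06, and 4.25% of them were called in either direction. Gnb4, which encodes the beta 4 subunit, was 0.653-fold in the authors' deposited table (log2 -0.61, SE 0.13, adjusted p = 4.73e-05), the largest fall of the family. Gng3, a neuronal gamma subunit, fell by 0.47 on the log2 scale (adjusted p = 0.0202, SE 0.15) in the authors' deposited table. Gng2, a widely expressed gamma subunit, fell by 0.36 (adjusted p = 0.0286, SE 0.12) in the authors' deposited table. These were 1 of 3 tested beta and 2 of 10 tested gamma genes outside the members, with list medians of -0.19 and -0.16. The called alpha gene was Gna12, which encodes an alpha subunit of the G12/13 kind, at 0.50 (SE 0.14, 1.41-fold, adjusted p = 0.00509) in the authors' deposited table, 1 of 4 tested alpha genes outside the members with a list median of 0.29. Gna11, the close relative of Gnaq, was at 0.015 (adjusted p = 0.974, SE 0.14) and was picked for naming after its value was seen, from the authors' deposited table. Log2 fold changes were also centred on coding genes with no predicted membrane or signal segment and a mean of at least 100, a shift of 0.07. The falls of Gng2 and Gng3 were not called with this centring. They were also lost at a threshold of 0.01 and, together with the call of Gna12, under Benjamini-Yekutieli adjustment and with SEs scaled by the spread of the statistic. The call of Gnb4 held under all 8 alternatives. Among pan-neuronal markers in the authors' deposited table, Tubb3 was called lower (-0.39, SE 0.13) and Syt1 higher (0.51, SE 0.17), while Snap25 (-0.12, SE 0.12) and Rbfox3 (-0.11, SE 0.12) did not pass. Of 10 striatal projection neuron markers, 4 were called higher and 0 lower in the authors' deposited table, with a median of 0.30. Those 4 were among the 7 with a predicted segment. Of all tested genes 11.8% were called higher and 2.01% lower. The part of neuronal content in the lower beta and gamma genes was not tested.

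**Figure D3:**
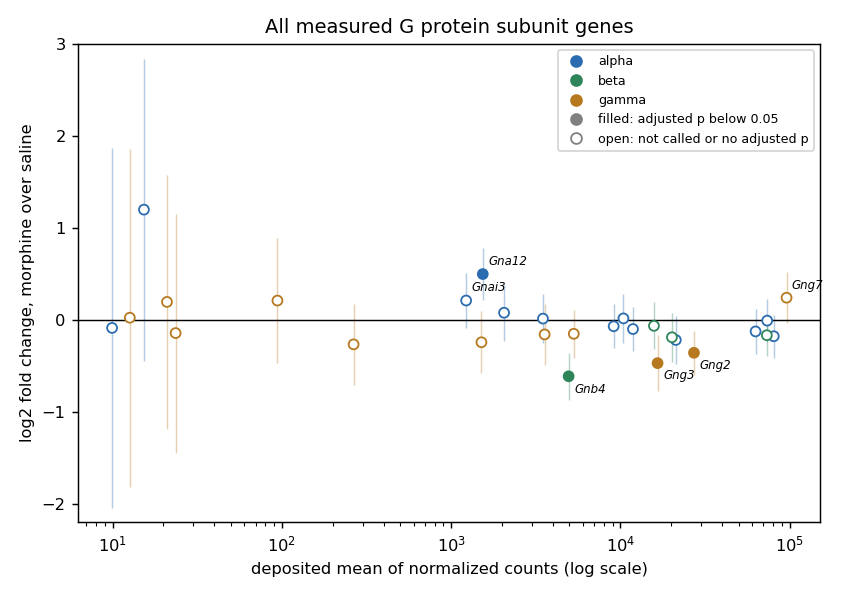
Log2 fold change of morphine over saline against the authors' deposited mean (log scale) for the 28 measured G protein subunit genes, with bars for the normal 95% interval and filled points for adjusted p below 0.05. The filled points are Gna12 above 0 and Gnb4, Gng3 and Gng2 below 0, and intervals widen at low means.

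The receptors and cyclases that flank these subunits had higher medians than all tested genes, of which 11.8% were called higher and 2.01% lower with a median of -0.01. They all have a predicted membrane or signal segment, and of coding genes with one 44.3% were called, with a median of 0.56 in the authors' deposited table. Of 31 receptors that couple to Gi or Go, 15 were called higher and 0 lower in the authors' deposited table, with a median log2 fold change of 0.49. Examples in the authors' deposited table are the muscarinic receptor gene Chrm4 at 1.03 (adjusted p = 1.45e-11, SE 0.14) and the neuropeptide Y receptor gene Npy2r at 1.01 (SE 0.33). The lowest called values of that list in the authors' deposited table were 0.46 for both the nociceptin receptor gene Oprl1 and the adenosine receptor gene Adora1 (SE 0.15 each). Of 16 tested receptors that couple to Gs or Golf, 10 were called higher and 0 lower in the authors' deposited table, with a median of 0.63. They ranged among called genes in the authors' deposited table from Gpr12, an orphan receptor gene, at 0.46 (SE 0.16) to the orphan receptor gene Gpr3 at 1.06 (SE 0.24). The authors' deposited table also gave Adrb1, the beta 1 adrenergic receptor gene, 1.01 (SE 0.16) and the serotonin receptor gene Htr6 0.58 (SE 0.21). Of 14 receptors that couple to Gq or G11, 7 were called higher and 0 lower in the authors' deposited table, with a median of 0.63. The called genes of that list with the highest and lowest values in the authors' deposited table include the substance P receptor gene Tacr1 at 0.75 (SE 0.19), Adra1d at 0.71 (SE 0.23) and Chrm1 at 0.66 (SE 0.15).

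Downstream, of 8 tested adenylyl cyclase genes 6 were called higher and 0 lower in the authors' deposited table, with a median log2 fold change of 0.73. The highest in the authors' deposited table were Adcy9 at 0.96 (adjusted p = 5.08e-08, SE 0.16) and Adcy3 at 0.89 (SE 0.14). The lowest called in the authors' deposited table were Adcy1, a calcium-stimulated cyclase, at 0.57 (SE 0.14) and Adcy6 at 0.70 (SE 0.18). Other effectors were mostly not called, with 1 of 13 higher, 0 lower and a median of 0.13 in the authors' deposited table. Of all tested genes 11.8% were called higher and 2.01% lower. A predicted segment was present in 4 of the 13, of which 1 was called, and 0 of the 9 without one were called. The called gene was Kcnj9, which encodes a subunit of the potassium channels opened by beta-gamma, with a value of 0.74 (adjusted p = 0.000200, SE 0.17) in the authors' deposited table.

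Proteins that act on the subunits themselves were mostly not called. Of 9 tested chaperones and modulators 0 were called by the authors' DESeq2 test, also 0 at an unadjusted p below 0.05, with a median of -0.08. Of all tested genes 13.8% were called. All 9 have no predicted segment, and of coding genes without one 4.25% were called, with a median of -0.06. The smallest p values of that list, by the authors' deposited table, belonged to Ric8b, a chaperone of stimulatory alpha subunits, at -0.19 (adjusted p = 0.484, SE 0.14) and to Gprin3 at -0.20 (adjusted p = 0.506, SE 0.15). Of 11 enzymes that add or remove lipids on G proteins or finish their prenylated ends, 3 were called higher and 0 lower in the authors' deposited table, beside 11.8% and 2.01% of all tested genes, with a median of -0.01. The called genes in the authors' deposited table were Icmt, which methylates the prenylated cysteine (0.80, SE 0.14, adjusted p = 2.27e-07), Rce1, the protease that cuts off the last residues (0.61, SE 0.20, adjusted p = 0.0179), and the palmitoyltransferase gene Zdhhc3 (0.37, SE 0.13, adjusted p = 0.0348). These 3 are among the 4 enzymes of that list with a predicted membrane or signal segment, and 0 of the 7 without one were called. Under Benjamini-Yekutieli adjustment, at a threshold of 0.01 and with scaled SEs the count was 1.

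A segment was predicted by hydropathy in 1 of the 10 members, Gnai2, where it falls on a protein known to be cytosolic and lipid-anchored, and in 0 of the other 17 tested subunit genes. It was predicted in all 61 tested receptors of the lists and all 8 tested cyclases. By the authors' deposited table, 4.25% of 10055 tested coding genes with no predicted segment were called, with a median log2 fold change of -0.06, and 44.3% of 3853 with one, with a median of 0.56. The count of 0 of 10 members stands near the former share. Beside the latter share, 15 of 31 Gi/o, 10 of 16 Gs/olf and 7 of 14 Gq/11 receptors and 6 of 8 cyclases were called. Whether these lists differ from other genes with a segment was not tested. Nothing particular to G protein subunits or their receptors is read from these counts.

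**Figure D4:**
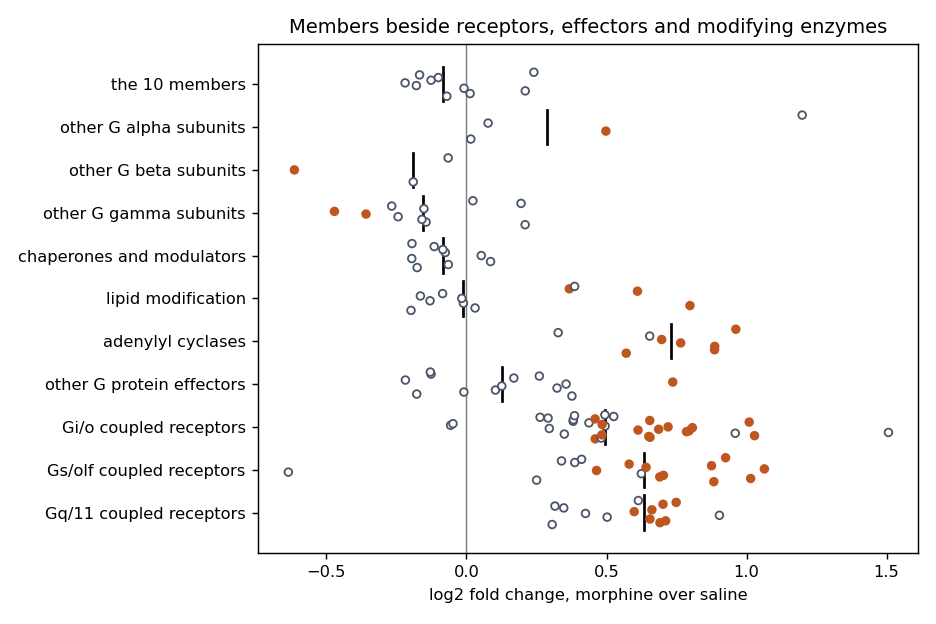
Log2 fold change of morphine over saline for each tested gene (points, filled for adjusted p below 0.05) of the 10 members and the lists around them, with vertical lines at the list medians, from the authors' deposited table. Members lie between -0.22 and 0.24, whereas the medians of the receptor lists and the cyclases lie between 0.49 and 0.73.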

How the data were processed

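Ribosome-bound RNA from 3 morphine and 3 saline libraries was compared by the authors. The submitters' processing notes list the tools DESeq2 1.20.0 and STAR 2.6.1d, and GRCm38 and mm10 as builds, without saying what each did. The sources used here do not give the counter, annotation, strand setting, model formula or filter. Per gene, the authors' deposited mean is a signal, the average over fitted libraries of counts scaled by size factors. The authors' deposited fold changes and SEs are on the log2 scale. The authors' deposited statistic is a score, the fold change over its SE. Wald p-values, two-sided, were deposited by the authors with their Benjamini-Hochberg adjusted values, the latter missing for 1453 genes. The 3 smaller sheets held the values of the full sheet.

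Symbols from GENCODE M21 (GRCm38) matched 18726 identifiers, each member once. No model was refitted, and no set test was run. Normal 95% intervals were made from the SEs. Segments were predicted on the longest coding sequence (19 residues with mean Kyte-Doolittle hydropathy of at least 1.9, or 12 residues within the first 40 with at least 2.2). Genes named are all members and, per list, up to 2 called genes from the top and 2 from the bottom by log2 fold change, or 2 by smallest p if no gene was called. The value of 1 gene that this rule names is not reported here. Members and lists were chosen with earlier results of these data known. Likeness between genes was not computed, since the table holds a single comparison. Alternatives changed the adjustment, threshold, centring, SE and gene length. Adjustment and segment steps were tested on simulated data. The software was Python 3.11.15 with scipy 1.17.1, numpy 2.4.6, Biopython 1.88, pandas 2.3.3 and, for figures, matplotlib 3.10.9.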

Additional observations from a re-analysis of the deposited data

How the results depend on the processing

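No member was called under any of the 8 alternatives, with the lowest adjusted p of a member between 0.145 and 1. Benjamini-Yekutieli adjustment, the threshold of 0.01 and the scaled SEs are stricter than the main setting. With 0 members called there, these settings could not have added a member. Centring on coding genes with no predicted segment and a mean of at least 100 moved Gnai1 to 0.0018 and Gnal to 0.063 on the log2 scale. Centring on all genes with a mean of at least 100 moved Gnal to 0.0090, and each of these moves crossed 0. The SE scaled by the spread of the statistic (1.37) left 8 called Gi/o receptors, 5 Gs/olf receptors, 4 Gq/11 receptors, 1 lipid-modifying enzyme, 0 other alpha and 0 other gamma genes. Benjamini-Yekutieli adjustment left 6 Gs/olf receptors, 1 lipid-modifying enzyme, 0 other alpha and 0 other gamma genes. A threshold of 0.01 left 6 Gs/olf receptors, 1 lipid-modifying enzyme and 0 other gamma genes. The above centring on coding genes with no predicted segment left 0 other gamma genes. The inhibitory over stimulatory summed level was 0.793 with the longest transcript and 1.36 with the coding sequence, against 1.21. The cause was not tested. No library could be left out. No paired analysis was possible because values per library were not analysed here.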
